A study of Homo sapiens with 2 samples.

Results

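The 10 mature miRNAs described here are known from neurons: hsa-miR-124-3p, hsa-miR-124-5p, hsa-miR-9-5p, hsa-miR-9-3p, hsa-miR-128-3p, hsa-miR-132-3p, hsa-miR-132-5p, hsa-miR-212-3p, hsa-miR-129-5p and hsa-miR-138-5p. The species prefix hsa is left off from here on. They were chosen by name, with earlier results of these data known, and all 10 were among the 2218 mature miRNAs of the deposited table. Small RNA was sequenced in K562 cells, a human erythroleukaemia line that grows in suspension. One group of cells had been transduced with lentivirus to overexpress QKI5, a nuclear form of Quaking, which binds RNA. The other had received a GFP lentivirus. Each group had 1 library, which leaves every difference below without a replicate check and without a p-value for an effect of QKI5. The level of QKI5 RNA was not analysed here.

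A miRNA is cut from a hairpin in a longer primary transcript, first by Drosha in the nucleus and then by Dicer in the cytoplasm. The short duplex that results has a 5p and a 3p arm, and either can be loaded into Argonaute. Bases 2 to 8 of the loaded arm, the seed, pair with target mRNAs. miR-124 is the hallmark miRNA of differentiated neurons, where it represses transcripts of non-neuronal genes. miR-9 acts in neural progenitors and early neurons, and miR-128 is a brain miRNA made from introns of host genes. miR-132 and miR-212 are neighbours transcribed together and induced by neuronal activity through CREB. miR-138 was described in rat neurons as a regulator of dendritic spine size, and miR-129 is a further brain miRNA.

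The mature sequences below carry the comparisons between arms and between miRNAs that share a seed. They were taken from RefSeq (GRCh38.p14), which gave 8 of the 10 members, and capitals mark the seed.
miR-9-5p: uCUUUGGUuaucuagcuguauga
miR-9-3p: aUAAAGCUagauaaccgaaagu
miR-128-3p: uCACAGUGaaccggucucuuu
miR-3681-3p: aCACAGUGcuucauccacuacu
miR-132-3p: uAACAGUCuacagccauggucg
miR-212-3p: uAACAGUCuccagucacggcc
miR-132-5p: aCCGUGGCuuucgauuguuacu
miR-129-5p: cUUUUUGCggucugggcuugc
miR-129-1-3p: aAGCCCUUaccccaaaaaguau
miR-129-2-3p: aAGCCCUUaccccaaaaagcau
miR-138-5p: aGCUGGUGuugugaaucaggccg

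Among the members, miR-132-3p and miR-212-3p share a seed and are identical at 17 of 21 positions counted from the 5′ end. miR-3681-3p, which is no member, has the seed of miR-128-3p but matches it at only 11 of 21 positions. miR-129-1-3p and miR-129-2-3p differ at 1 of 22 positions.

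The hairpins lie apart in the genome except for the pair on chromosome 17. The miR-132 hairpin holds miR-132-3p at chr17:2049929-2049950 and miR-132-5p at chr17:2049965-2049986, and miR-212-3p lies at chr17:2050290-2050310, all on the minus strand. These hairpins are 262 bases apart, and GENCODE release 29 places no other gene over either. miR-9 has 3 hairpins that hold the same mature sequences. MIR9-1 is in an intron of C1orf61 (miR-9-5p at chr1:156420392-156420414, minus strand), MIR9-2 in an exon of LINC00461 (chr5:88666902-88666924, minus strand) and MIR9-3 in an intron of MIR9-3HG (chr15:89368032-89368054, plus strand). miR-128-3p comes from introns of R3HDM1 (chr2:135665446-135665466, plus strand) and ARPP21 (chr3:35744527-35744547, plus strand). The sequence of miR-129-5p is held by MIR129-1 on chromosome 7, outside other annotated genes, and by MIR129-2 on chromosome 11 (chr11:43581408-43581428, plus strand), within introns of non-coding genes. miR-138-5p comes from hairpins at chr3:44114234-44114256 and chr16:56858527-56858549, both on the plus strand with no host gene. Reads of a mature miRNA with several hairpins cannot be assigned to 1 of them. The letters ACUAA, the core of the sequence that Quaking proteins are known to bind, were searched on the transcribed strand. They were in 0 of the 11 member hairpins that RefSeq holds, and in 3.27% of all 1560 RefSeq hairpins. No match says only that these letters are not within those hairpins.

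Levels are given in RPM, reads per 1000000 reads of the library. The QKI5 library rested on 6553945 reads and the GFP library on 23262340, so a single read was worth 0.153 RPM with QKI5 and 0.0430 RPM with GFP. Listed miRNAs took 59.5% of the QKI5 total and 66.3% of the GFP total. All 6 erythroid miRNAs fixed as markers of K562 were read in both libraries, and none differed by 2-fold. Their summed level was 15989 RPM in the QKI5 library, against 11065 RPM in the GFP library. Most of this sum was miR-16-5p, with 12705 RPM in the QKI5 library, against 7083 RPM in the GFP library. The 6 did not share a direction, as 4 were higher in the QKI5 library and 2 lower. The lower ones were miR-451a, by a ratio of 0.782 (95% counting interval 0.767 to 0.796), and miR-144-3p, by 0.535 (0.510 to 0.561). The 2 glial markers, miR-219a-5p and miR-338-3p, had 1 read together in the QKI5 library (0.153 RPM), against 8 in the GFP library (0.344 RPM). The 4 muscle markers together had 19 reads with QKI5 (2.90 RPM) and 9 with GFP (0.387 RPM). The 3 epithelial markers had 476 reads with QKI5 (72.6 RPM) and 1496 with GFP (64.3 RPM). The 5 leukocyte markers summed to 20864 RPM with QKI5, against 19084 RPM with GFP, almost wholly from miR-142 and miR-223, while miR-150-5p and miR-155-5p had 1 read each with QKI5 and 2 reads each with GFP. The endothelial pair, both arms of miR-126, summed to 39659 RPM with QKI5, against 15054 RPM with GFP. Of the marker miRNAs that passed a mean of 1 RPM, 3 were more than 2-fold higher with QKI5, namely miR-126-3p, the endothelial miRNA, by 2.69-fold, miR-1, with 13 reads in QKI5 cells and 4 in GFP cells, and miR-205-5p, with 21 reads in each library. Those that passed were 6 erythroid, 3 leukocyte, 2 endothelial, 1 muscle and 3 epithelial miRNAs. Over all 604 miRNAs that passed, 21.2% were past 2-fold higher, so the markers' share was no larger than the background. Of these 3, miR-1 and miR-205-5p were under 1 RPM in the GFP library and reached that mean only through the QKI5 library, so their direction followed from the filter. Their part in the results below was not tested.

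The neuronal miRNAs did not appear as a block in these cells. miR-9 and miR-128 were well above miR-132 in level, and miR-124 was almost never read. Together the 10 members held 5935 reads in the QKI5 library, against 21066 in the GFP library, or 0.152% of the miRNA reads with QKI5 and 0.137% with GFP. Their summed level was 906 RPM in both libraries. In each library 9 of the 10 had at least 1 read and 8 had more than 3.

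**Figure D1:**
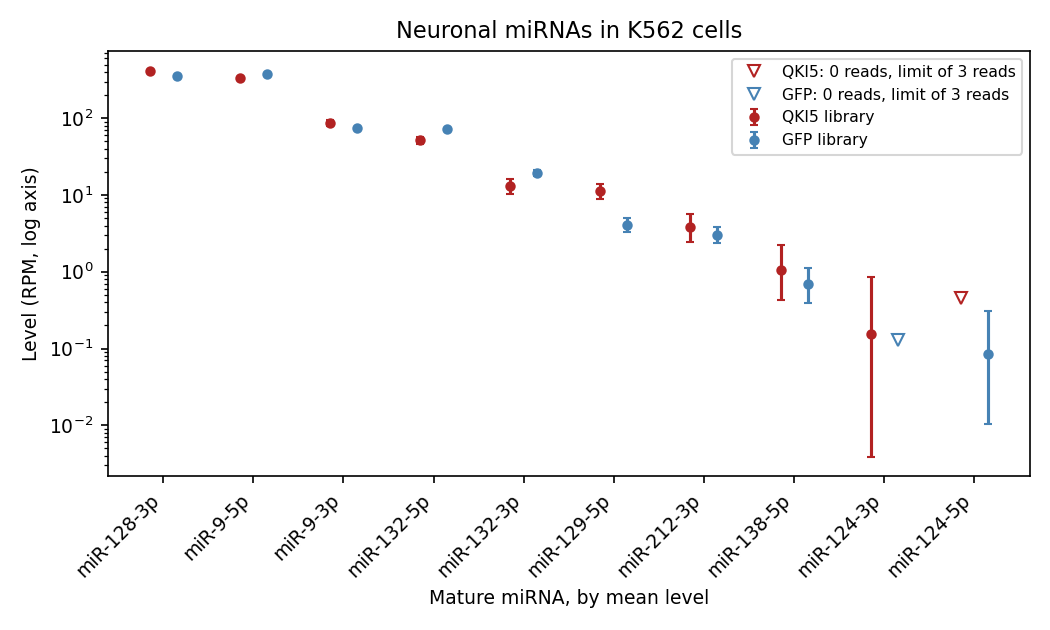
Level of each of the 10 miRNAs in RPM (log axis), with the QKI5 library to the left of the GFP library. Bars are exact 95% Poisson intervals and open triangles mark 0 reads at the limit of 3 reads. Levels run from about 400 RPM for miR-128-3p down to single reads for miR-124, and the order is nearly the same in both libraries.

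miR-124 gave no more than stray reads. miR-124-3p, the arm that acts in neurons, had 1 read in the QKI5 library, against 0 reads in the GFP library. miR-124-5p had 0 reads in the QKI5 library, against 2 reads in the GFP library. The limit set for a count of 0 was 3 reads, which is 0.458 RPM in QKI5 cells and 0.129 RPM in GFP cells. A 95% counting interval of the ratio above 1 would have taken 3 reads in the QKI5 library against 0 in the GFP library. An interval below 1 would have taken 0 reads in the QKI5 library against 15 in the GFP library. Neither arm reached this, so the depth did not allow a difference in miR-124 to be detected, and no fold is given. GENCODE has its 3 hairpin genes on chromosomes 8 and 20, MIR124-1 in an exon of LINC00599 and MIR124-2 in an intron of MIR124-2HG.

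miR-128-3p and miR-9-5p were the most abundant members and changed places. miR-128-3p was at 407 RPM (95% Poisson interval 392 to 423) in the QKI5 library, against 356 RPM (348 to 364) in the GFP library. miR-9-5p was at 332 RPM (318 to 346) in the QKI5 library, against 378 RPM (370 to 386) in the GFP library. In each library these neighbours in the order of levels did not overlap, and the leading one was miR-128-3p with QKI5 and miR-9-5p with GFP. Of the reads of both, miR-128-3p held 55.1% in the QKI5 library (95% Clopper-Pearson interval 53.7% to 56.5%) and 48.5% in the GFP library (47.7% to 49.3%). How often other miRNAs of similar level changed places between the libraries was not counted. The log2 ratios of QKI5 over GFP were 0.19 for miR-128-3p and -0.19 for miR-9-5p. After the GC correction described below with miR-9 they were close together, at 0.18 and 0.12. The GC contents are 47.6% and 34.8%, and a part of base composition in the switch was not tested. The sequences are 21 and 23 bases long, so these levels compare whole reads of nearly equal length and hold no correction for how well each sequence is captured. By rank among all listed miRNAs, miR-128-3p was number 78 with QKI5 and 88 with GFP, and miR-9-5p was number 86 with QKI5 and 85 with GFP.

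A miRNA was counted as past 2-fold when the log2 ratio of QKI5 over GFP on log2(RPM + 0.153) was at least 1 in size, among miRNAs with a mean of at least 1 RPM over both libraries. For miRNAs with few reads such a ratio is an understatement. Of the 7 members that passed this filter, 1 was past 2-fold, miR-129-5p, which was higher, and 0 were lower. Over all 604 miRNAs that passed, 28.6% were past 2-fold, 21.2% higher and 7.45% lower, so the members' share was no larger than the background. The median log2 ratio was 0.19 over the 7 members and 0.24 over the 604, whose middle 50% lay between -0.36 and 0.85. The counting interval of the plain ratio lay wholly above 1 for 3 of the 7 and wholly below 1 for 3, against 41.2% and 25.2% of the 604. These 6 of 7 compare with 66.4% of the 604. At 1.5-fold, 1 of the 7 members was past the threshold, against 54% of the 604. The members outside the filter were miR-138-5p and both arms of miR-124.

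**Figure D2:**
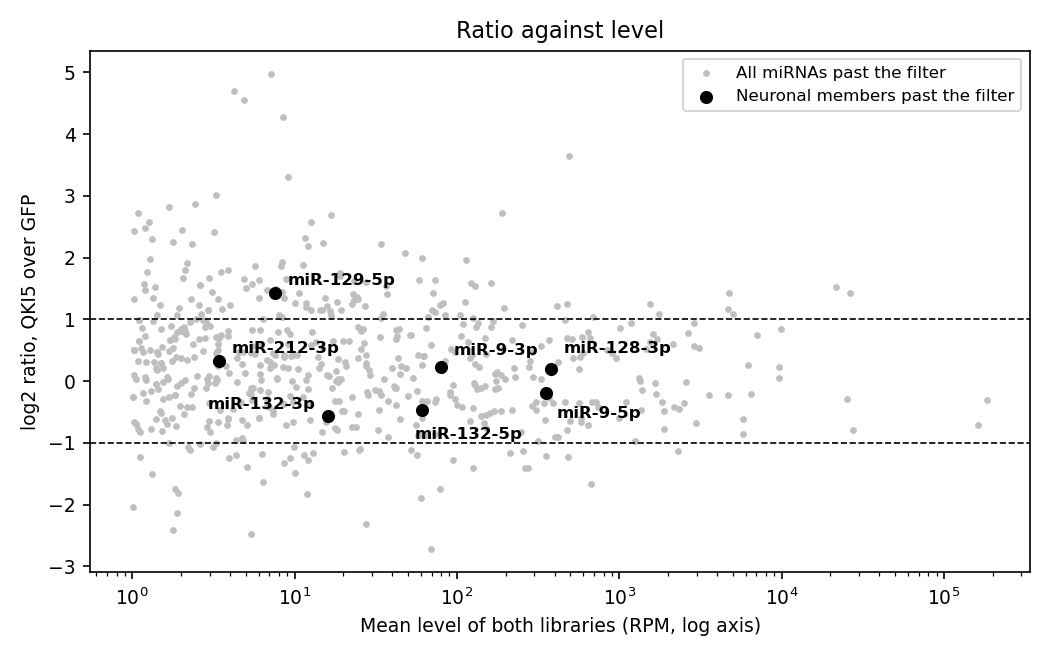
log2 ratio of QKI5 over GFP against the mean level of both libraries (RPM, log axis) for the 604 miRNAs with a mean of at least 1 RPM (grey), with the 7 neuronal miRNAs among them in black. Dashed lines mark 2-fold, and only miR-129-5p of the 7 lies beyond one.

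As deposited, the miR-9 arms leaned in opposite directions, while after a GC correction both log2 ratios were above 0, at 0.12 for the 5p arm and 0.60 for the 3p arm. miR-9-5p had 2175 reads in the QKI5 library, where an equal level would have given 2476 (log2 ratio -0.19), and 8790 reads in the GFP library, a plain ratio of 0.878 (95% counting interval 0.838 to 0.921). miR-9-3p had 564 reads in the QKI5 library, where an equal level would have given 482, and 1712 reads in the GFP library, a ratio of 1.17 (1.06 to 1.29). The 3p arm therefore held 20.6% of miR-9 reads with QKI5 (19.1% to 22.2%) and 16.3% with GFP (15.6% to 17.0%). A share within a library does not depend on how the columns were scaled, and here the intervals did not overlap. The log2 ratio of the 5p arm was 0.41 below that of the 3p arm. Among the 89 hairpins with at least 50 reads on each arm in each library, 62 had arms further apart than this, and the median distance was 0.76. The log2 ratio of miR-9-5p was -0.03 with each column scaled to its miRNA sum. The GC correction took away a straight-line trend of the log2 ratio on base composition. Across 535 miRNAs that passed the filter and had a RefSeq sequence, the log2 ratio was higher by 0.25 for every 10 percentage points of GC. miR-9-5p and miR-9-3p have 34.8% and 31.8% GC.

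miR-128-3p differed by little, with a plain ratio of 1.14 (1.09 to 1.20). Its log2 ratio ran from 0.09, when scaling ignored the 10 most abundant miRNAs, to 0.35, with each column scaled to its miRNA sum. Those rescalings moved the median of all 604 miRNAs by -0.11 and by 0.15. miR-128-1-5p, the other arm of the R3HDM1 hairpin, had 13 reads in the QKI5 library, against 32 in the GFP library, so of the reads of these arms miR-128-3p held 99.5% with QKI5 and 99.6% with GFP. The 5p arm of the ARPP21 hairpin was not analysed here. miR-3681-3p, with the same seed, was at 53.4 RPM with QKI5, against 59.8 RPM with GFP, a ratio of 0.892 (0.791 to 1.004). Together the miRNAs with this seed came to 460 RPM with QKI5, against 416 RPM with GFP, a ratio of 1.11 (1.06 to 1.15).

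Both arms of miR-132 were lower with QKI5 by similar factors, short of 2-fold. miR-132-5p was at 51.4 RPM (46.1 to 57.2) in the QKI5 library, against 71.3 RPM (67.9 to 74.8) in the GFP library, a ratio of 0.721 (0.640 to 0.812). miR-132-3p was at 13.0 RPM (10.4 to 16.0) in the QKI5 library, against 19.2 RPM (17.4 to 21.0) in the GFP library, a ratio of 0.676 (0.530 to 0.855). The counting intervals of the levels did not overlap for either arm. miR-132-3p had 85 reads in the QKI5 library, where an equal level would have given 126, against 446 reads in the GFP library. The log2 ratio of miR-132-3p stayed between -0.67 and -0.40 and that of miR-132-5p between -0.58 and -0.31 under the scalings, pseudocounts, filters and GC correction tried.

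The 5p arm, known as the lesser arm in neurons, was the leading arm of miR-132 in both K562 libraries. There were 3.96 reads of miR-132-5p per read of miR-132-3p with QKI5 and 3.72 with GFP. The 3p arm held 20.1% of miR-132 reads with QKI5 (16.4% to 24.3%) and 21.2% with GFP (19.5% to 23.0%), a ratio of odds of 0.938 (0.714 to 1.22). Of the 89 hairpins, 82 had arms further apart in log2 ratio than miR-132 and 82 kept the same leading arm in both libraries.

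miR-212-3p, from the neighbouring hairpin, was read too rarely to place its ratio on either side of 1. It had 25 reads in the QKI5 library, against 70 reads in the GFP library, a level of 3.81 RPM in QKI5 cells and 3.01 RPM in GFP cells and a ratio of 1.27 (0.769 to 2.03). This interval overlaps that of miR-132-3p. Of the 3p reads of the pair, miR-132 held 77.3% with QKI5 (68.3% to 84.7%) and 86.4% with GFP (83.2% to 89.3%). These intervals overlap, while the interval of the ratio of odds, 0.534 (0.313 to 0.933), lies below 1. miR-212 was read mostly from its 3p arm, with 2 reads of miR-212-5p in each library, against the 5p lead of its neighbour. The seed that miR-132-3p and miR-212-3p share came to 16.8 RPM with QKI5, against 22.2 RPM with GFP, a ratio of 0.757 (0.610 to 0.931). The sources used here do not say how reads matching both were counted.

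**Figure D3:**
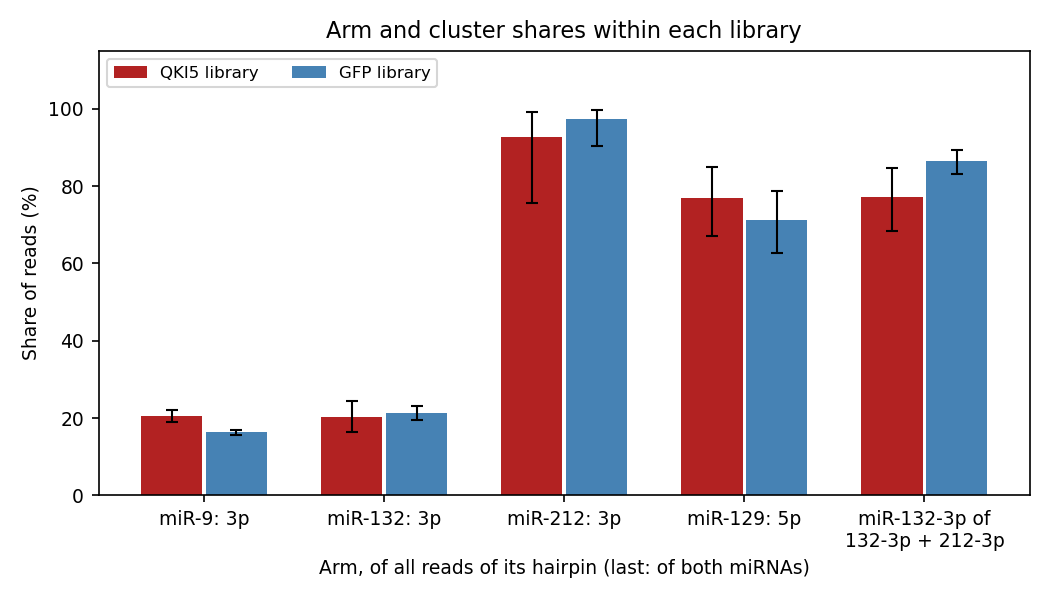
Share of reads on the named arm among all reads of its hairpins, and at the right the share of miR-132-3p among the 3p reads of miR-132 and miR-212, in percent with exact 95% Clopper-Pearson intervals. QKI5 bars stand left of GFP bars. The 3p share of miR-9 is 20.6% with QKI5 and 16.3% with GFP, and the other pairs of intervals overlap.

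miR-129-5p differed most among the members. It was at 11.1 RPM (8.73 to 14) in the QKI5 library, against 4.04 RPM (3.27 to 4.95) in the GFP library, so the levels did not overlap. An equal level would have given 26.5 reads in the QKI5 library, and 73 were found, against 94 in the GFP library. The plain ratio was 2.76, and its counting interval, 2.002 to 3.78, only just cleared 2-fold, which 13.2% of the 604 miRNAs did on the higher side. The log2 ratio of 1.43 was 1.18 with the GC trend removed, at a GC content of 57.1%, and stayed above 1 under each other setting. From the 3p side, miR-129-2-3p had 22 reads in the QKI5 library, against 37 in the GFP library, 2.11-fold higher (1.19 to 3.67), and miR-129-1-3p had 0 reads with QKI5 and 1 with GFP. The 5p arm held 76.8% of miR-129 reads with QKI5 (67.1% to 84.9%) and 71.2% with GFP (62.7% to 78.8%), and these intervals overlap.

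miR-138-5p stood at the edge of detection. It had 7 reads in the QKI5 library, against 16 reads in the GFP library, or 1.07 RPM (0.429 to 2.20) with QKI5 and 0.688 RPM (0.393 to 1.12) with GFP. The ratio of 1.55 had an interval of 0.540 to 3.99, so a difference was not detectable at this depth. Its 3p arms, which differ between the hairpins, had 1 read together with QKI5 and 3 with GFP.

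Other miRNAs known from neurons or glia were set beside the members by a list of 17 names, of which 16 were matched. Of the 7 that passed the filter, 4 were past 2-fold higher and 0 lower, with a median log2 ratio of 1.07, against 21.2% higher and a median of 0.24 over all 604. The list was chosen with earlier results of these data known. One of the 4, miR-330-3p, was under 1 RPM with GFP and passed only through the QKI5 library where it was high. With at least 1 RPM required in each library, 3 of 6 were past 2-fold higher and the median was 0.51, against 100 of 546 and a median of 0.21 over all miRNAs. Without the filter the median over the 16 was -0.07, and the 9 that the filter left out had at most 9 reads in either library. The 3 most abundant were miR-7-5p, miR-135b-5p and miR-135a-5p. miR-135b-5p was at 141 RPM with QKI5, against 66.8 RPM with GFP, 2.10-fold higher (1.94 to 2.28). miR-135a-5p was at 99.9 RPM with QKI5, against 46.1 RPM with GFP, 2.17-fold higher (1.96 to 2.39). The intervals of both reach below 2-fold, and 3 of the 7 were past 2-fold when scaling ignored the 10 most abundant miRNAs. With the GC trend removed, 3 of the 7 were past 2-fold higher and the median was 0.98. Over all miRNAs with a sequence, that correction gave 100 of 535 and a median of 0.22. miR-149-5p was 2.52-fold higher (2.12 to 2.99), and miR-330-3p, with 14 reads with QKI5 and 15 with GFP, 3.31-fold higher (1.48 to 7.36). miR-7-5p was at 164 RPM with QKI5, against 179 RPM with GFP, and the ratio of miR-218-5p, at 5.19 RPM in QKI5 cells and 5.59 RPM in GFP cells, was 0.928 (0.617 to 1.36).

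Brain-expressed miRNAs of the imprinted 14q32 region had a summed level of 4038 RPM with QKI5, against 3807 RPM with GFP over 9 names. The members summed to 906 RPM in both libraries. Single levels of the 9 with QKI5 ran from 20.6 to 1315 RPM, and several lay below miR-128-3p and miR-9-5p in both libraries. Of the 9, 1 was past 2-fold higher and 0 lower, against 21.2% higher and 7.45% lower over all 604, so this share was no larger than the background. It was miR-134-5p, known for limiting dendritic spine size in rat neurons, at 35.2 RPM with QKI5, against 13.5 RPM with GFP, 2.60-fold higher (2.19 to 3.09). The 3 most abundant were miR-329-3p, miR-485-3p and miR-487b-3p, with ratios of 0.908 (0.886 to 0.929), 1.37 (1.33 to 1.41) and 0.665 (0.639 to 0.691). The median log2 ratio of this list was 0.15.

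**Figure D4:**
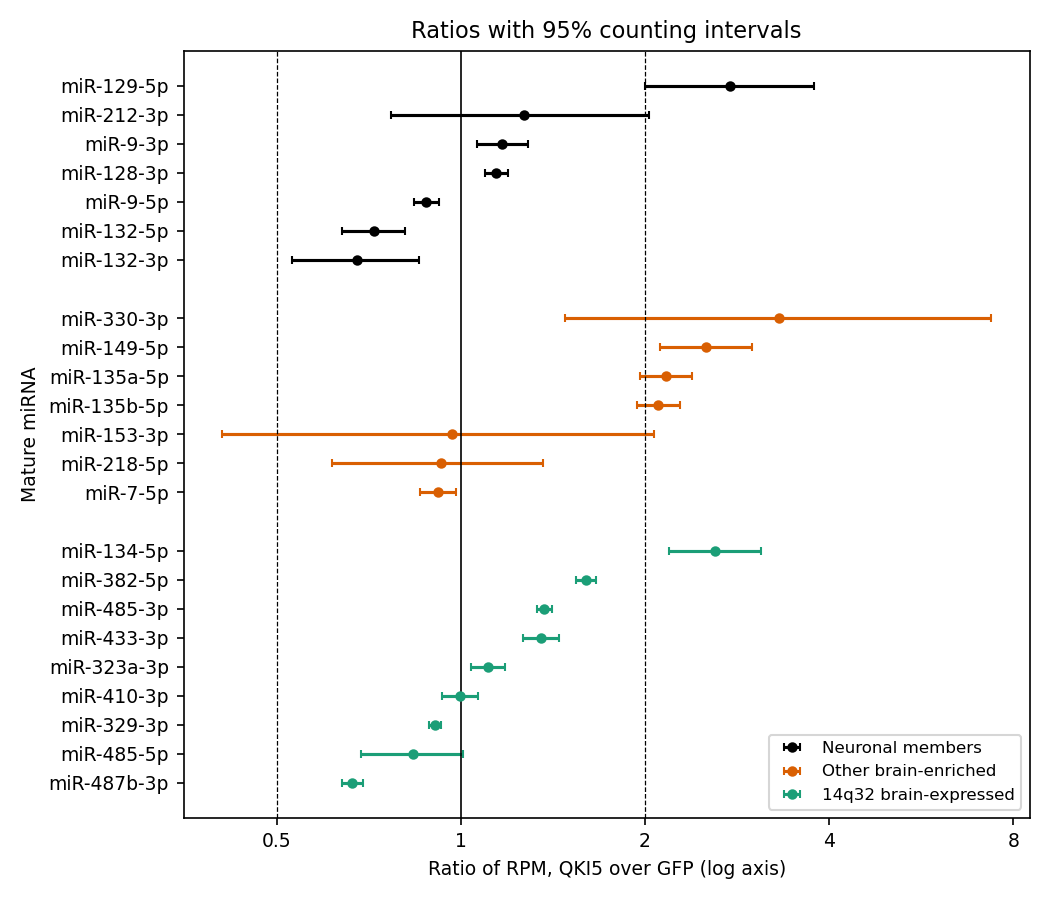
Plain ratio of RPM, QKI5 over GFP (log axis), with exact 95% counting intervals for the neuronal members, other brain-enriched miRNAs and 14q32 brain-expressed miRNAs with a mean of at least 1 RPM. Dashed lines mark 2-fold. Of the members only miR-129-5p, at 2.76, lies past 2-fold.

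With 2 libraries, likeness to a member could only be read as closeness in both levels at once. For the 6 members with at least 50 reads in each library, the miRNA with the smallest distance on the log2 scale was miR-411-5p for miR-9-5p (0.10), miR-125b-5p for miR-9-3p (0.05), miR-431-5p for miR-128-3p (0.19), miR-425-3p for miR-132-3p (0.10), miR-1307-3p for miR-132-5p (0.05) and miR-147b for miR-129-5p (0.05). The next nearest were miR-494-3p, miR-93-3p, miR-9-5p, miR-629-3p, miR-221-3p and miR-130a-3p, in the same order of members, at distances of 0.07 to 0.31. miR-9-5p was thus the second nearest to miR-128-3p, and no other member appeared among these neighbours.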

How the data were processed

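Mature miRNAs were measured by small RNA sequencing on an Ion Proton instrument, per the labels' protocols, in 1 QKI5 and 1 GFP library. Bowtie 0.12.3 and hg19 are named in the submitters' processing notes. The annotation, the mismatches, the use of strand and the treatment of multiply mapping reads are not stated there. The values the authors deposited are RPM, although their table is named for RPKM: within a tolerance of 0.1 of a read, 100.0% of the values above 0 in each column were whole multiples of 1 step, which was taken as 1 read.

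Reads were recovered from these steps. Ratios have exact conditional binomial 95% intervals, levels exact Poisson intervals and shares Clopper-Pearson intervals. All intervals, and the limit of 3 reads set where a miRNA had 0, hold counting error alone. Differences between cultures or library preparations are left out, since each group had 1 library. PCR copies could not be told from separate molecules and were counted as separate reads, so the intervals can be too narrow even for counting error. An exact binomial test per miRNA (Benjamini-Hochberg adjusted over all detected), which compares these 2 libraries and not the conditions, called 426 of 1995 detected miRNAs (21.4%). The 2-fold calls, ratio intervals and binomial test were run on simulated counts with known changes. Those counts were Poisson draws, which the intervals and the test assume, so the run cannot show how they behave with differences between libraries beyond counting error. Alternatives changed the scaling, pseudocount, filter and threshold; the GC correction and the filter of 1 RPM in each library were chosen after seeing the data.

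The members and lists were chosen with earlier results of these data known. The text names all members, their other arms, miRNAs with a member's seed and at least 10 reads, the 3 most abundant of each brain list, all 2-fold miRNAs of the brain and marker lists, and for each member with at least 50 reads in each library its 2 nearest miRNAs. miR-218-5p, miR-16-5p, miR-451a and miR-144-3p were added after their values were seen. Hairpins and hosts came from RefSeq and GENCODE release 29, both on GRCh38. All 11 RefSeq hairpins lay at the same place in GENCODE. Software was scipy 1.17.1, numpy 2.4.6 and pandas 2.3.3 under Python 3.11.15.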

Additional observations from a re-analysis of the deposited data

How the results depend on the processing

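miR-129-5p stayed past 2-fold under each scaling, pseudocount, filter and threshold tried, and its log2 ratio ran from 1.18 to 1.58. Without the filter 2 members were past 2-fold higher, the second being miR-124-3p on a single read. The binomial test of reads called 3 members higher and 3 lower of 10, against 21.4% of all 1995 detected miRNAs. These shares are not alike in depth, since 7 of the 10 members passed the filter but only 604 of the 1995. Among miRNAs past the filter, the counting interval lay off 1 for all but 1 of the 7 members, against 66.4% of the 604. miR-9-5p turned to a log2 ratio of 0.12 with the GC trend removed. The cause was not tested. With each column scaled to its miRNA sum, the median log2 ratio was 0.35 for the members, 1.23 for the other brain-enriched list and 0.305 for the 14q32 list. The members' median, 0.19 as deposited, was 0.0034 at a mean of 5 RPM and 0.118 after the GC correction. When scaling ignored the 10 most abundant miRNAs, it was 0.0854, and the 14q32 median was 0.0407. For the other brain-enriched list, leaving out the filter gave 1 miRNA past 2-fold lower and turned the median to -0.0733, as low counts entered, while requiring 1 RPM in each library gave a median of 0.51. The 14q32 list had 2 higher and 1 lower at 1.5-fold, and 5 and 2 in the binomial test. Over all miRNAs there were 475 higher and 145 lower without the filter (of 1995), 84 higher at a mean of 5 RPM (of 406), 215 and 111 at 1.5-fold, and 290 and 136 in the binomial test. No paired analysis was possible because each group had 1 library. Depth limited miR-124 and miR-138-5p most: the GFP library was 3.55 times as deep as the QKI5 library, which set the limit.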
